A study of Mus musculus with 12 samples.

Results

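The forkhead transcription factors described here were 10 mouse genes, *Foxo1*, *Foxo3*, *Foxc1*, *Foxc2*, *Foxf1*, *Foxf2*, *Foxp1*, *Foxp2*, *Foxd1* and *Foxs1*. They were chosen by name, as the vascular and mesenchymal members of the family, and each matched 1 of the 35727 rows of the deposited count table. RNA was sequenced from cultured fibroblasts of neonatal mouse hearts at 3 time points (Day 3, Day 7, 4 weeks), and every one of the 6 groups has 2 libraries. The control groups carry the name of the retroviral backbone (PMX) in the table, and the *Sox17*-*Erg* groups received retroviruses encoding the transcription factors *Sox17* and *Erg*, an approach meant to turn fibroblasts into induced endothelial cells (iECs). The labels of all 12 libraries name EGM2, an endothelial growth medium, as the culture medium. Hearts were pooled before isolation and cells were sorted for the fibroblast surface protein THY1, and the study added removal of PECAM1-positive cells to the isolation when it characterised iECs, to limit carry-over of endothelial cells from the hearts. The labels of these libraries do not mention that step and name neither strain nor sex. The methods describe no sorting before RNA was taken, so for every gene below a change in the share of cells that express it and a change in RNA per cell cannot be told apart.

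Forkhead proteins share a DNA-binding domain of the winged-helix type and act as activators or repressors depending on the member. FOXO1 and FOXO3 are held out of the nucleus when growth factor signaling through PI3K and AKT phosphorylates them, and FOXO1 is needed in endothelium for vessels to form. FOXC1 and FOXC2 act in mesenchyme and in arterial and lymphatic endothelium, FOXF1 and FOXF2 respond to Hedgehog signals in mesenchyme, FOXP1 and FOXP2 are repressors, FOXD1 marks stromal progenitors, and FOXS1 is known from pericytes and other perivascular cells.

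Sequences are shown first for *Foxo1* and *Foxo3*, because these paralogs moved in opposite directions below and short reads must tell them apart. The first pair is from the coding sequence of the longest GENCODE M21 coding transcript of each gene, bases 541 to 638 of 1956 for *Foxo1* and bases 538 to 635 of 2016 for *Foxo3*, around the longest run that both share. Capitals mark the bases that are identical between both genes.
Foxo1 coding: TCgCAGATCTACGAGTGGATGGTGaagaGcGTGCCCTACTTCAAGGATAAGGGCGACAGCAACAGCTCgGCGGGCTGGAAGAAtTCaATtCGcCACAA
Foxo3 coding: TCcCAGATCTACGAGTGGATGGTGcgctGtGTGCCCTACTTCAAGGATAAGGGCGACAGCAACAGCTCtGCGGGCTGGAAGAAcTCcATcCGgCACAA
The longest run without a difference was 38 bases, and 87 of the 98 bases printed (88.8%) were identical. Across all exons, 8 words of 31 bases were common to *Foxo1* and *Foxo3*, out of 8635 and 7568. The corresponding number was 34 for *Foxc1* and *Foxc2* and 11 for *Foxf1* and *Foxf2*. Words found in any other annotated gene made up 0.799% of *Foxo1*, 2.73% of *Foxp1*, the highest share of the 10, and 0% of *Foxs1*.

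RefSeq promoter windows (GRCm38.p6) were found for 6 of the 10 genes, *Foxo1*, *Foxo3*, *Foxc1*, *Foxf2*, *Foxp1* and *Foxd1*. Letters known from the binding motifs of ETS factors such as ERG (CCGGAAG), of SOX factors (ACAATG) and of forkhead factors (TGTTTAC) were looked for on both strands of the 250 bases before the start site. These motifs do not contain one another. They occurred in 6.91%, 10.7% and 3.17% of all 32851 windows. Among the windows of the 6 genes, the only match was 1 SOX match upstream of the third start site of *Foxp1*, between 85 and 80 bases before the start, and it is in capitals in the sequences below. The windows of the pair with opposite directions are shown beside it, each without bases that GENCODE annotates as exon.
Foxo1 (chr3:52268087-52268335, plus strand): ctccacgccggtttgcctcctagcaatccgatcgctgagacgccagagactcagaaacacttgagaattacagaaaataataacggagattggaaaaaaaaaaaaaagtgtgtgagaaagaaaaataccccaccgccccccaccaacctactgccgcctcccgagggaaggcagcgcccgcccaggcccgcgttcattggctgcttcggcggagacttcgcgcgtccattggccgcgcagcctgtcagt
Foxo3 (chr10:42276756-42276945, minus strand): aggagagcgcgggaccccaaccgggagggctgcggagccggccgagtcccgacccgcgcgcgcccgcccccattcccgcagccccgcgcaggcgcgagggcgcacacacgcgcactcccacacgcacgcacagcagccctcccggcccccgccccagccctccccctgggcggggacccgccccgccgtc
Foxp1 (chr6:99028314-99028548, minus strand): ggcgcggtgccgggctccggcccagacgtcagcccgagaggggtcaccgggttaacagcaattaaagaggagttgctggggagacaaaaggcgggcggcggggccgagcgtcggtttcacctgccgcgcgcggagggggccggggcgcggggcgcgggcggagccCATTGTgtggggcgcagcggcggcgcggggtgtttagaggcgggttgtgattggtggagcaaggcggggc
The full window of *Foxo1* held 56% G and C and that of *Foxo3* held 76.4%, against a median of 52.4% over all windows. A match or its absence in these windows describes the letters only.

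Each library held between 19011635 and 41240449 counts. *Sox17* had at most 9 counts in a control library and at least 10019 in a *Sox17*-*Erg* library, and *Erg* had at most 49 and at least 389, so the libraries followed their labels. Of the 10 forkhead genes, 9 passed the filter on low counts that 15506 genes passed, and *Foxd1* did not. Levels below are CPM, counts scaled to a common library size after TMM normalization, and differences are log2 fold changes of *Sox17*-*Erg* over control with their standard errors (SE) from 1 edgeR fit across all tested genes. The threshold for a call was 0.05 for the p adjusted by the Benjamini-Hochberg method.

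*Foxo1*, *Foxc2* and *Foxp1* were higher with *Sox17*-*Erg* at all 3 time points. *Foxc1* was called lower at Day 3, *Foxo3* was lower at Day 7 and 4 weeks, and *Foxp2* was lower at 4 weeks. At Day 3, 3 forkhead genes were higher, where 7.19% of all tested genes were, and 1 was lower, where 5.13% were (12.3% together). At Day 7, 3 were higher against 9.48% of all tested genes and 1 was lower against 7.93% (17.4% together). At 4 weeks, 3 were higher against 11.9% and 2 were lower against 11.0% (22.9% together). Genes called higher at all 3 time points made up 3.59% of those tested, and 2.27% were called lower at all 3, which no forkhead gene of the 9 was. The libraries of both arms did not overlap for 7 of the 9 at Day 3, of which 3 lay higher and 4 lower (34.1% and 29.9% of all tested genes, 64.0% together). At Day 7, 4 lay higher and 3 lower (29.0% and 28.8%, 57.9% together), and at 4 weeks 4 lay higher and 2 lower (30.3% and 32.4%, 62.7% together). The median log2 fold change of the 9 genes was -0.05, -0.07 and -0.04 at the 3 time points in turn, beside 0.01, 0.01 and -0.01 over all tested genes.

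**Figure D1:**
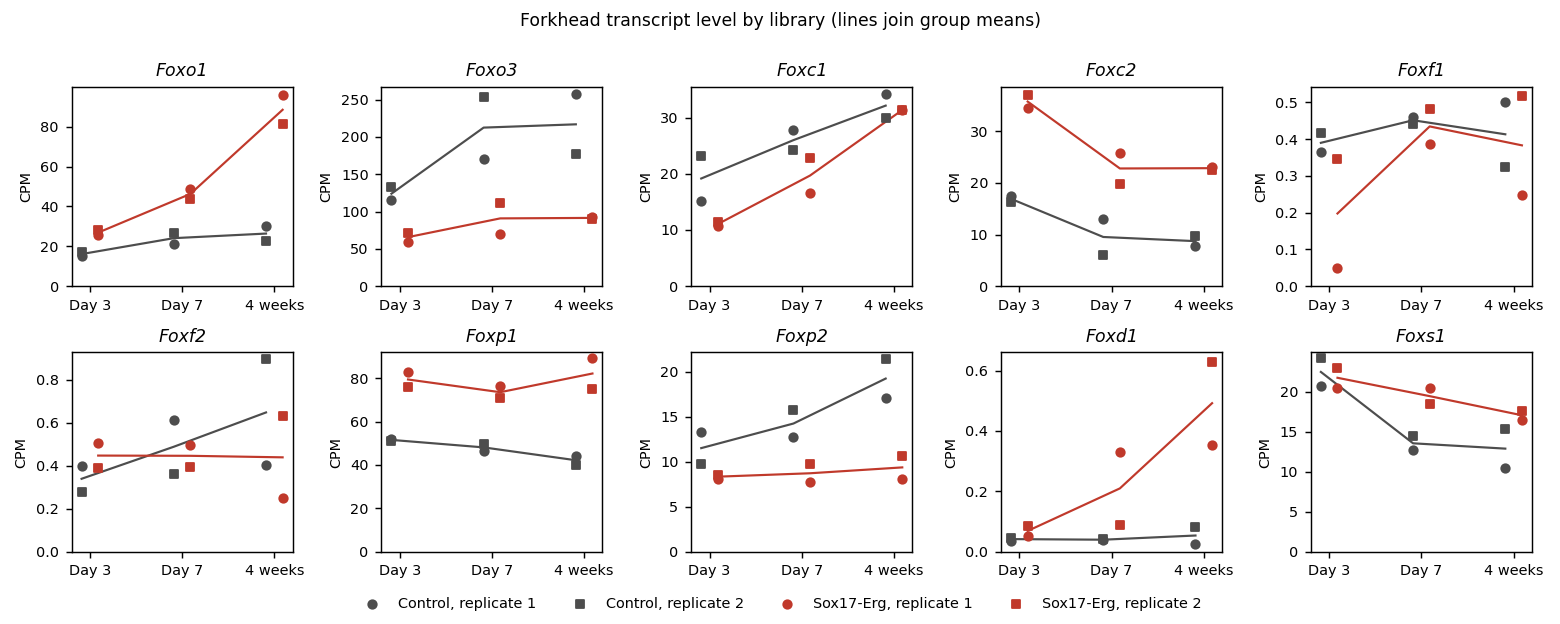
CPM of each of the 10 forkhead genes (vertical axes, each from 0 with its own scale) at Day 3, Day 7 and 4 weeks, with 1 point per library and lines joining the group means. *Foxo1* in *Sox17*-*Erg* libraries rises from 25.7 and 28.1 CPM to 96.0 and 81.2 CPM, while *Foxo3* lies lower in every *Sox17*-*Erg* library than in the control libraries of the same time point.

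*Foxo1* (ENSMUSG00000044167, GRCm38 chromosome 3, 52268336 to 52353221, plus strand) is the FOXO member best known from growing vessels. Day 3 control libraries held 15.1 and 17.1 CPM, Day 7 ones 21.3 and 26.8 CPM, and 4-week ones 30.2 and 22.6 CPM. In the *Sox17*-*Erg* libraries it was 25.7 and 28.1 CPM, 48.7 and 43.9 CPM, and 96.0 and 81.2 CPM. Every *Sox17*-*Erg* library was above both control libraries of its time point, and at 4 weeks above all 6 control libraries by a wide margin. Fold changes on the log2 scale were 0.74 (SE 0.18, adjusted p = 0.029) at Day 3, 0.94 (SE 0.17, adjusted p = 0.0067) at Day 7 and 1.74 (SE 0.18, adjusted p = 2e-04) at 4 weeks, a 3.35-fold difference. Within the *Sox17*-*Erg* arm *Foxo1* rose by a log2 difference of 1.72 (adjusted p = 0.00049) from Day 3 to 4 weeks, and within the control arm by 0.72 (adjusted p = 0.017). The effect at 4 weeks exceeded that at Day 3 by 1.003 (SE 0.24), which did not pass the threshold (adjusted p = 0.065). It did pass when the replicate number was fitted as a block within each time point (1.013, adjusted p = 0.027), as a block over all libraries with the 4-week numbers crossed (1.008, adjusted p = 0.026), with DESeq2 (0.0093) and without the filter on low counts (0.0084). The Day 3 call was lost without any 1 of the 4 Day 3 libraries, at an adjusted p of 0.15 and 0.11 without control replicates 1 and 2 and of 0.14 and 0.096 without *Sox17*-*Erg* replicates 1 and 2. At Day 7 it was lost without *Sox17*-*Erg* replicate 1 (0.052), and at 4 weeks it was kept without each of the 12 libraries. The rise within the control arm was lost without either Day 3 control library (0.11 and 0.054) or without the 4-week control replicate 1 (0.12). An antisense gene overlaps 674 exon bases of *Foxo1* and has no row in the table.

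*Foxo3* (ENSMUSG00000048756, chromosome 10, 42181841 to 42276755, minus strand) was the FOXO gene with the highest level in control cells. It had 115 and 133 CPM in Day 3 control libraries, 171 and 254 CPM in Day 7 ones, and 257 and 177 CPM in 4-week ones. With *Sox17*-*Erg* it had 59.7 and 71.7 CPM, 69.8 and 112 CPM, and 93.2 and 89.7 CPM. The arms did not overlap at any time point. Its log2 fold change was -0.92 (SE 0.27, adjusted p = 0.057) at Day 3, just short of the threshold, and -1.23 (SE 0.27, adjusted p = 0.015) at Day 7 and -1.25 (SE 0.27, adjusted p = 0.01) at 4 weeks. The Day 3 difference passed the threshold with DESeq2 (0.0083), without the filter (0.00078), when Day 3 was fitted alone (0.02) and with a replicate block within each time point (0.0049). It also passed without Day 7 control replicate 1 (0.046) or either Day 7 *Sox17*-*Erg* library (0.037 and 0.031). The Day 7 call was lost when Day 7 was fitted alone (0.079), without control replicate 2 (0.098) or without *Sox17*-*Erg* replicate 1 (0.12). The 4-week call was lost without control replicate 1 (0.075) or without *Sox17*-*Erg* replicate 1 or 2 (0.063 and 0.055). *Foxo3* in the control arm differed by 0.81 between 4 weeks and Day 3 (adjusted p = 0.053, 0.045 with the replicate block over all 12 libraries and 0.0038 with it within each time point). It fell short without 4-week control replicate 1 (0.515, adjusted p = 0.31) or either Day 3 control library (0.23 and 0.13). It passed also with DESeq2 (0.016), without the filter (0.0013), without either Day 7 control library (0.041 and 0.043), either Day 7 *Sox17*-*Erg* library (0.034 and 0.03) or 4-week control replicate 2 (0.041). The same difference in the *Sox17*-*Erg* arm was 0.48 (adjusted p = 0.21, but 0.023 with the block within each time point and 0.04 with the crossed one).

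Because *Foxo1* and *Foxo3* moved apart, their ratio per transcript length (RPKM, CPM per kilobase of merged exons) was taken in each library. *Foxo1* over *Foxo3* was 0.114 and 0.113 in Day 3 control libraries, 0.109 and 0.0923 in Day 7 ones, and 0.103 and 0.112 in 4-week ones. With *Sox17*-*Erg* it was 0.376 and 0.342, then 0.609 and 0.343, and 0.9 and 0.79 at 4 weeks. The control ratios stayed within a narrow range, whereas both genes were near equal per length in the 4-week *Sox17*-*Erg* libraries. On the log2 scale the nearest libraries of both arms were 1.58, 1.65 and 2.82 apart at the 3 time points. These ratios, and those of the *Foxc* and *Foxp* pairs below, combine values tested gene by gene and carry no test of their own. In each pair the gene with the higher fold change was made the numerator, which fixes the direction.

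**Figure D2:**
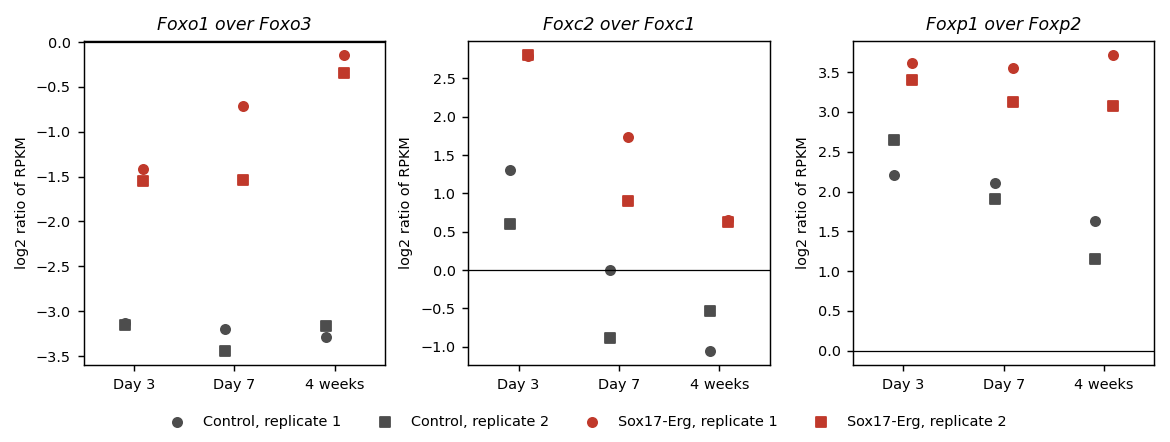
Log2 ratio of RPKM within each library for *Foxo1* over *Foxo3*, *Foxc2* over *Foxc1* and *Foxp1* over *Foxp2* (vertical axes, each with its own range and the line marking equal RPKM) at Day 3, Day 7 and 4 weeks, with 1 point per library. In all 3 pairs both *Sox17*-*Erg* libraries lie above both control libraries at each time point, and for *Foxo1* over *Foxo3* the control points stay between -3.44 and -3.13. In each pair the gene with the higher fold change is the numerator, so the shared direction is no separate result. The pair of *Foxf1* and *Foxf2* is not shown.

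*Foxc1* (ENSMUSG00000050295, chromosome 13, 31806633 to 31812476, plus strand) and *Foxc2* (ENSMUSG00000046714, chromosome 8, 121116171 to 121118895, plus strand) encode closely related factors. *Foxc1* had 15.2 and 23.1 CPM in the Day 3 control libraries and 10.7 and 11.4 CPM in the *Sox17*-*Erg* libraries. At Day 7 it had 27.8 and 24.2 CPM against 16.6 and 22.8 CPM, and at 4 weeks 34.3 and 30 CPM against 31.4 and 31.3 CPM. The arms were apart at Day 3 and Day 7 and overlapped at 4 weeks. *Foxc1* had a log2 fold change of -0.79 (SE 0.21, adjusted p = 0.044) at Day 3, -0.40 (SE 0.21, adjusted p = 0.22) at Day 7 and -0.04 (SE 0.21, adjusted p = 0.93) at 4 weeks. Within the *Sox17*-*Erg* arm *Foxc1* rose by a log2 difference of 1.504 (SE 0.22, adjusted p = 0.0018) from Day 3 to 4 weeks, and within the control arm by 0.75 (SE 0.21, adjusted p = 0.028). The difference between these changes, 0.76 (SE 0.30), did not pass the threshold (adjusted p = 0.23) and was 0.49 without Day 3 control replicate 2 and 1.03 without Day 3 control replicate 1. The Day 7 difference was -0.19 without *Sox17*-*Erg* replicate 1 and -0.69 without replicate 2. The Day 3 call sat close to the threshold. It was lost when Day 3 was fitted alone (0.066), without Day 3 control replicate 2 (-0.495, adjusted p = 0.26), without either Day 3 *Sox17*-*Erg* library (0.23 and 0.11), and also without libraries of other times, Day 7 control replicate 2 (0.054), the 4-week controls (0.059 and 0.055) and the 4-week *Sox17*-*Erg* libraries (0.061 and 0.064). The rise in the control arm was lost without Day 3 control replicate 1 (0.48, adjusted p = 0.18) or either 4-week control library (0.15 and 0.055), and the rise in the *Sox17*-*Erg* arm was kept without each of the 12 libraries.

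*Foxc2*, known from lymphatic valves and from mesenchyme, moved the other way. Day 3 control libraries had 17.5 and 16.4 CPM, Day 7 ones 13.0 and 6.07 CPM, and 4-week ones 7.72 and 9.72 CPM. In *Sox17*-*Erg* libraries it was 34.5 and 37.1 CPM, 25.8 and 19.8 CPM, and 23.1 and 22.6 CPM. The lowest *Sox17*-*Erg* library of any time was above the highest control library of any time. *Foxc2* had a log2 fold change of 1.08 (SE 0.29, adjusted p = 0.043) at Day 3, 1.26 (SE 0.29, adjusted p = 0.019) at Day 7 and 1.395 (SE 0.30, adjusted p = 0.0092) at 4 weeks. Within control, *Foxc2* fell by 0.96 on the log2 scale from Day 3 to 4 weeks (adjusted p = 0.04), and with *Sox17*-*Erg* the difference was -0.65 (adjusted p = 0.12, but 0.028 without the filter, 0.028 with the block within each time point, and 0.026 and 0.018 without Day 7 control replicate 1 or 2). The Day 3 call was lost without Day 3 control replicate 1 or 2 (0.15 and 0.23) or *Sox17*-*Erg* replicate 1 or 2 (0.2 and 0.12), and also without Day 7 *Sox17*-*Erg* replicate 2 (0.056), either 4-week control library (0.056 and 0.065) or either 4-week *Sox17*-*Erg* library (0.076 and 0.07). The fall within control was lost without the same 9 libraries, at adjusted p values from 0.051 without Day 7 *Sox17*-*Erg* replicate 2 to 0.22 without 4-week control replicate 1. The Day 7 call was lost without *Sox17*-*Erg* replicate 1 (0.14) or with Day 7 fitted alone (0.13), and the 4-week call without control replicate 1 (0.075) or *Sox17*-*Erg* replicate 1 (0.054). Leaving out 1 library at a time, the Day 7 difference ranged from 0.815 without Day 7 control replicate 2 (adjusted p = 0.044) to 1.886 without Day 7 control replicate 1 (adjusted p = 0.0028), and the 4-week difference from 1.23 to 1.57.

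*Foxc2* over *Foxc1*, per length, was 2.46 and 1.52 in control libraries at Day 3 and 0.483 and 0.695 at 4 weeks. With *Sox17*-*Erg* it was 6.93 and 6.96 at Day 3 and 1.58 and 1.55 at 4 weeks. Control cells therefore changed from more *Foxc2* to more *Foxc1* per length, while every *Sox17*-*Erg* library had more *Foxc2*.

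*Foxf1* (ENSMUSG00000042812, chromosome 8, 121084386 to 121088144, plus strand) and *Foxf2* (ENSMUSG00000038402, chromosome 13, 31625816 to 31631403, plus strand), the Hedgehog-responsive mesenchymal members, were barely expressed. *Foxf1* had 1 to 20 counts per library and *Foxf2* 6 to 22. The log2 fold change of *Foxf1* was -0.92 (SE 0.75) at Day 3, -0.07 (SE 0.67) at Day 7 and -0.13 (SE 0.67) at 4 weeks, and that of *Foxf2* was 0.38 (SE 0.65), -0.12 (SE 0.61) and -0.54 (SE 0.61). None passed the threshold. The Day 3 difference of *Foxf1* was -2.84 without *Sox17*-*Erg* replicate 2 and -0.21 without replicate 1, and that of *Foxf2* ranged from 0.12 to 0.67 without 1 library. The 95% intervals at 4 weeks ran from -1.63 to 1.37 for *Foxf1* and from -1.90 to 0.83 for *Foxf2*, and differences within them were not detectable at this depth.

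Both *Foxf* genes lie beside a *Foxc* gene, *Foxf1* 31.8 kb upstream of *Foxc2* and *Foxf2* 180.8 kb upstream of *Foxc1*, from start to start. *Foxl1*, 11.8 kb beyond *Foxc2*, had 8 to 17 counts in every library and a log2 fold change between -0.07 and 0.13. In the first cluster *Foxc2* was thus the only forkhead gene called. In the second, *Foxq1*, 69.7 kb from *Foxf2*, was called at 4 weeks as described below. Another gene model on the same strand overlaps both *Foxf1* and *Foxc2* and shares 0 exon bases with either.

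*Foxp1* (ENSMUSG00000030067, chromosome 6, 98925338 to 99522721, minus strand), a repressor with roles in heart and endothelium, had the smallest SE of the 9 tested genes at each time point. Control libraries of Day 3 held 51.9 and 51.1 CPM, those of Day 7 46.4 and 49.8 CPM, and those of 4 weeks 44.3 and 40.0 CPM. *Sox17*-*Erg* libraries held 82.9 and 75.9 CPM, 76.3 and 70.8 CPM, and 89.4 and 74.9 CPM. All 6 *Sox17*-*Erg* libraries were above all 6 control libraries. *Foxp1* had a log2 fold change of 0.62 (SE 0.12, adjusted p = 0.012) at Day 3, 0.61 (SE 0.12, adjusted p = 0.0074) at Day 7 and 0.96 (SE 0.12, adjusted p = 0.00054) at 4 weeks. The change over time was -0.29 (adjusted p = 0.094) within control and 0.05 (adjusted p = 0.78) within *Sox17*-*Erg*. The 4-week call was kept without each of the 12 libraries. The Day 3 call was lost without control replicate 1 or 2 (0.079 and 0.097) or *Sox17*-*Erg* replicate 1 (0.14), and the Day 7 call without control replicate 1 (0.051), without *Sox17*-*Erg* replicate 1 (0.063) or with Day 7 fitted alone (0.061). *Foxp1* shares 300 exon bases with another protein-coding gene model on its strand.

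*Foxp2* (ENSMUSG00000029563, chromosome 6, 14901349 to 15441977, plus strand), best known from the brain, had lower levels. Control libraries of Day 3 had 13.3 and 9.71 CPM, those of Day 7 12.8 and 15.7 CPM, and those of 4 weeks 17.0 and 21.5 CPM. In the *Sox17*-*Erg* libraries it had 8.10 and 8.57 CPM, 7.72 and 9.71 CPM, and 8.11 and 10.6 CPM. Its *Sox17*-*Erg* values stayed near one level while those of control libraries were higher at 4 weeks than at Day 3. The log2 fold change was -0.47 (SE 0.23, adjusted p = 0.2) at Day 3, -0.71 (SE 0.22, adjusted p = 0.056) at Day 7 and -1.04 (SE 0.22, adjusted p = 0.0096) at 4 weeks. Without Day 3 control replicate 1 or 2 the Day 3 difference was -0.22 or -0.71. With the replicate block the Day 7 difference passed at an adjusted p of 0.047 over all 12 libraries and of 0.017 within each time point, and it also passed with DESeq2 (0.03) and without the filter (0.027). The change from Day 3 to 4 weeks was 0.74 (adjusted p = 0.036) within control and 0.17 (adjusted p = 0.61) within *Sox17*-*Erg*, and their difference of -0.57 was not called (adjusted p = 0.41) and was -0.82 without Day 3 control replicate 1 and -0.296 without Day 3 control replicate 2. The 4-week call was lost without control replicate 2 (0.058) or *Sox17*-*Erg* replicate 1 (0.079). The rise within control was lost without either Day 3 control library (0.0502 and 0.22), either 4-week control library (0.062 and 0.16) or Day 3 *Sox17*-*Erg* replicate 2 (0.053).

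*Foxp1* over *Foxp2*, per length, was 4.63 and 6.26 in Day 3 control libraries, 4.31 and 3.77 in Day 7 ones, and 3.09 and 2.22 in 4-week ones. With *Sox17*-*Erg* the ratio was 12.2 and 10.5, then 11.7 and 8.67, and 13.1 and 8.38 in the 4-week libraries. All 6 ratios with *Sox17*-*Erg* were above all 6 in control.

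**Figure D3:**
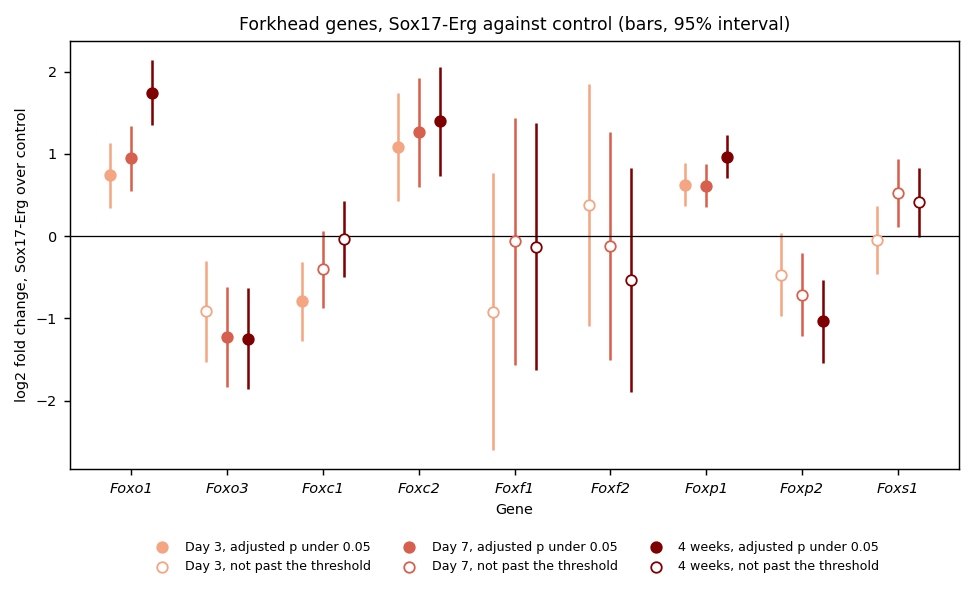
Log2 fold change of *Sox17*-*Erg* over control (vertical axis) for the 9 tested forkhead genes at Day 3, Day 7 and 4 weeks, with bars for the 95% interval of the edgeR fit and filled points for an adjusted p under 0.05. The filled points of *Foxo1*, *Foxc2* and *Foxp1* lie above 0 at all 3 time points, those of *Foxo3* and *Foxp2* lie below 0, and the intervals of *Foxf1* and *Foxf2* are the widest.

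*Foxs1* (ENSMUSG00000074676, chromosome 2, 152931898 to 152933208, minus strand) was among the forkhead genes with the highest level per length. Day 3 controls had 20.7 and 24.2 CPM, Day 7 controls 12.7 and 14.4 CPM, and 4-week controls 10.4 and 15.4 CPM. *Sox17*-*Erg* libraries had 20.5 and 23.0 CPM, 20.5 and 18.5 CPM, and 16.5 and 17.6 CPM. The arms overlapped at Day 3 and were apart at Day 7 and 4 weeks. The log2 fold change was -0.05 (SE 0.18, adjusted p = 0.89), 0.52 (SE 0.19, adjusted p = 0.084) and 0.41 (SE 0.19, adjusted p = 0.15) at the 3 time points, and none was called. The Day 7 difference passed with the replicate block within each time point (0.041). Without 4-week control replicate 1 or 2 the Day 7 difference passed (0.039 and 0.048), and the 4-week difference was 0.72 (adjusted p = 0.026) without replicate 2 and 0.15 (adjusted p = 0.64) without replicate 1. Within control, *Foxs1* fell by 0.81 on the log2 scale from Day 3 to 4 weeks (SE 0.19, adjusted p = 0.013). That call was lost without Day 3 control replicate 2 (0.082) or 4-week control replicate 1 (0.08). Within *Sox17*-*Erg* the change was -0.35 (SE 0.18, adjusted p = 0.18), and the difference between arms, 0.46, was not called (adjusted p = 0.43) and ranged from 0.197 without 4-week control replicate 1 to 0.81 without 4-week control replicate 2.

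*Foxd1* (ENSMUSG00000078302, chromosome 13, 98354242 to 98359305, plus strand) was the member under the filter. Control libraries had 1 count each at Day 3 and Day 7 and 1 and 2 counts at 4 weeks. *Sox17*-*Erg* libraries had 1 and 2 counts at first, 12 and 2 at Day 7, and 10 and 17 in the 4-week libraries. Pooled over libraries and scaled for depth, the 27 *Sox17*-*Erg* counts at 4 weeks were 10.5 times the 3 control counts, with an exact 95% interval for counting error alone of 3.23 to 54.1. At Day 7 the ratio was 6.04, with an interval of 1.39 to 54.7. In the fit without a filter, over 25680 genes, the 4-week log2 fold change was 3.21 (SE 1.21, adjusted p = 0.063), and no time point was called.

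Over time within the arms, 3 forkhead genes rose in control from Day 3 to 4 weeks (*Foxo1*, *Foxc1* and *Foxp2*), where 13.9% of all tested genes rose, and 2 fell (*Foxc2* and *Foxs1*), where 12.6% fell (26.5% together). In the *Sox17*-*Erg* arm 2 rose (*Foxo1* and *Foxc1*), against 15.1% of all tested genes, and 0 fell, against 15.6% (30.7% together). That count of 0, from edgeR, was also 0 at an unadjusted p under 0.05, and 0 with DESeq2 for the 7 genes other than *Foxf1* and *Foxf2*. *Foxc2* was called lower without the filter (0.028) and with the block within each time point (0.028), with which *Foxo3* was called higher (0.023). The difference in effect between 4 weeks and Day 3 was called by edgeR for 0 of the 9, where 2.22% of all tested genes had a higher and 0.987% a lower effect at 4 weeks (3.21% together). At an unadjusted p under 0.05 there were 2, *Foxo1* and *Foxc1*, and of the 7 genes other than *Foxf1* and *Foxf2* DESeq2 called 1, *Foxo1*, which was also called with the block within each time point (0.027).

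The order of levels per length also differed between arms. In control at Day 3 the 2 highest genes, *Foxs1* (mean 17.2 RPKM) and *Foxo3* (16.4 RPKM), overlapped, and *Foxc2* (6.21 RPKM) came next. In control at 4 weeks *Foxo3* led at 28.7 RPKM, followed by *Foxs1* at 9.83 and *Foxc1* at 5.5, while *Foxc2* (3.20), *Foxp1* (3.06) and *Foxo1* (3.05) overlapped with their neighbours in the order. In *Sox17*-*Erg* at 4 weeks *Foxs1* (13.0 RPKM), *Foxo3* (12.1), *Foxo1* (10.2), *Foxc2* (8.39), *Foxp1* (5.98) and *Foxc1* (5.37) followed each other without overlap of neighbouring libraries. *Foxo1* thus stood at place 6 in each control group and at place 3 in the 4-week *Sox17*-*Erg* group. *Foxp2*, *Foxf1*, *Foxf2* and *Foxd1* were the lowest 4 in all 6 groups, with *Foxp2* at place 7 and *Foxd1* at place 10 in each.

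The genes whose profile over the 12 libraries was most like that of a called forkhead gene were found by the root mean square (RMS) difference of mean-centred log2 CPM. For *Foxo1* they were *Sat1* (RMS 0.16), *Aggf1* (0.18) and *Pmepa1* (0.19), against a median of 0.90 over all tested genes. *Foxo3* was most like *Ssh2* (0.13), *Itpr1* (0.13) and *Fgd4* (0.13), with a median of 0.78. *Foxc1* was nearest to *Slc35a5* (0.15), *Aox1* (0.18) and *Hip1* (0.19), and *Foxc2* to *Tagln2* (0.24), *Shroom4* (0.27) and *Bag2* (0.27). The nearest profiles to *Foxp1* were *Zfp266* (0.08), *Tank* (0.10) and *Tcf20* (0.10), and to *Foxp2* *Ptgis* (0.15), *Creg1* (0.18) and *Suox* (0.18). These are descriptions over 12 libraries that share depth and group.

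The 34 other forkhead genes of the mouse are given for comparison. Of these, 14 passed the filter, and the counts called higher were 3, 4 and 5 at the 3 time points, where 7.19%, 9.48% and 11.9% of all tested genes were, with 0, 0 and 1 lower, where 5.13%, 7.93% and 11.0% were. *Foxj3*, whose protein is a widely expressed forkhead factor, had a log2 fold change of 1.03, 1.04 and 0.94 (SE 0.17 each) at the 3 time points and was called at each (adjusted p = 0.0079, 0.0037 and 0.0042), at Day 3 not without control replicate 2 (0.078) or *Sox17*-*Erg* replicate 1 (0.088). *Foxn2* was called at each too, with 0.46, 0.72 and 0.68 (adjusted p = 0.035, 0.0038 and 0.0034), but its Day 3 call was lost without the filter (0.07) and without 8 of the 12 libraries, the 4 of Day 3 (0.14, 0.23, 0.22 and 0.11), 4-week control replicate 2 (0.053), Day 7 *Sox17*-*Erg* replicate 2 (0.068) and both 4-week *Sox17*-*Erg* libraries (0.076 and 0.06). *Foxk2* was called at Day 3 and Day 7, at 0.48 both times (adjusted p = 0.035 and 0.026). Its Day 3 call was lost without the 4 Day 3 libraries in turn (0.17, 0.17, 0.25 and 0.087), Day 7 control replicate 1 (0.059), 4-week control replicate 2 (0.054) or either 4-week *Sox17*-*Erg* library (0.072 and 0.059). The Day 7 call was lost with Day 7 fitted alone (0.15), without either Day 7 control library (0.071 and 0.13) and without *Sox17*-*Erg* replicate 1 of Day 3 (0.056), Day 7 (0.21) or 4 weeks (0.057). The 4-week difference of *Foxk2*, 0.36 (adjusted p = 0.061), passed with DESeq2 (0.046), with the block within each time point or crossed (0.031 and 0.037) and without Day 7 *Sox17*-*Erg* replicate 1 or 2 (0.043 and 0.049). *Foxn3* was called at Day 7 and 4 weeks, at 0.60 and 0.77 (adjusted p = 0.012 and 0.0025), at Day 7 not without control replicate 1 (0.074) or *Sox17*-*Erg* replicate 1 (0.1) or with Day 7 fitted alone (0.1). Its Day 3 difference, 0.44 (adjusted p = 0.051), passed with DESeq2 (0.035), with Day 3 fitted alone (0.048), with the crossed block (0.042) and without Day 7 control replicate 2 (0.041). *Foxo4*, another FOXO gene, was lower at 4 weeks like *Foxo3*, by -0.82 (SE 0.23, adjusted p = 0.03), a call lost without 4-week control replicate 1 (-0.41, adjusted p = 0.22), either 4-week *Sox17*-*Erg* library (0.15 and 0.08) or Day 3 control replicate 2 (0.054). *Foxm1*, a regulator of mitosis, had 1.67, 1.22 and 1.61 (SE 0.59 to 0.63) without a call (adjusted p = 0.095, 0.19 and 0.098), and DESeq2 called it at Day 3 and at 4 weeks (0.018 both times). It was called at each without the filter (9.4e-05, 0.0032 and 0.00021) and with the block within each time point (0.0024, 0.0035 and 0.0023). Without 1 library its difference ranged from 1.45 to 1.83 at Day 3, from 0.41 (without *Sox17*-*Erg* replicate 1) to 2.17 (without control replicate 1) at Day 7 and from 0.73 (without *Sox17*-*Erg* replicate 2) to 2.13 (without *Sox17*-*Erg* replicate 1) at 4 weeks.

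*Foxd3* and *Foxq1* were called at 4 weeks from control levels near 0. Both passed the filter on low counts only through *Sox17*-*Erg* libraries, 5 of which were over its cutoff for each gene against 1 control library for *Foxd3* and 0 for *Foxq1*. A gene that enters in this way has to differ, so their calls, 2 of the 5 above at 4 weeks, are given as a description. *Foxd3*, known from neural crest, had 1 and 4 counts in the control libraries and 81 and 154 in the *Sox17*-*Erg* libraries at 4 weeks (log2 fold change 5.62, SE 0.96, adjusted p = 0.0033), a ratio of pooled counts of 54.9 with an exact 95% counting interval of 23.2 to 171. Its log2 fold change was 4.68 without 4-week control replicate 1 and 7.18 without control replicate 2, and was called without each library. Of the fits without 1 library, its Day 7 difference of 1.55 was called only without Day 7 control replicate 1 (3.49, adjusted p = 0.047), and it was 0.75 without Day 7 control replicate 2. *Foxq1*, the neighbour of *Foxf2* and *Foxc1*, had 2 and 0 counts against 57 and 40 (adjusted p = 0.0097, and 0.054 without 4-week control replicate 2), a ratio of 56.6 with an interval of 15.3 to 474. Its log2 fold change was 5.66, and 8.49 without 4-week control replicate 1 and 5.01 without control replicate 2. Among the 20 other forkhead genes under the filter, *Foxj1*, known from motile cilia, reached 12 and 7 counts in *Sox17*-*Erg* libraries at 4 weeks against 3 and 0.

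**Figure D4:**
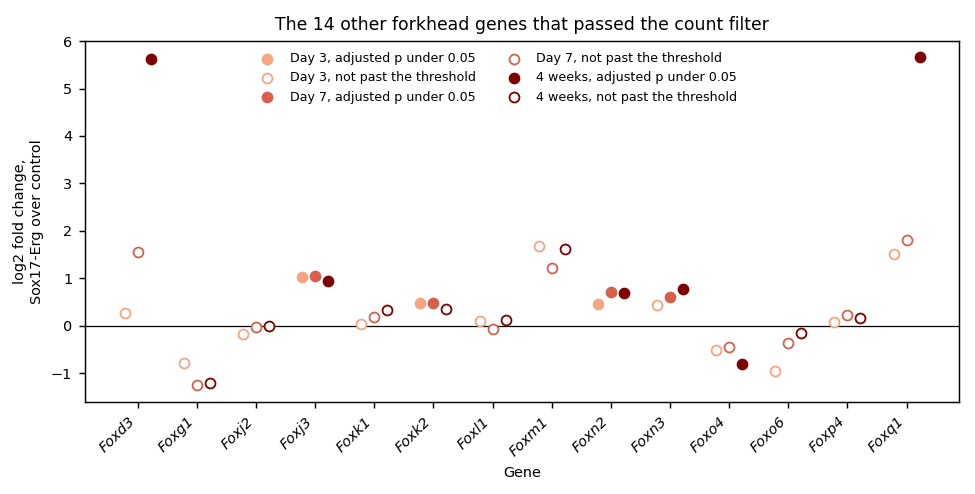
Log2 fold change of *Sox17*-*Erg* over control (vertical axis) for the 14 other forkhead genes that passed the count filter, at Day 3, Day 7 and 4 weeks, with filled points for an adjusted p under 0.05. *Foxd3* and *Foxq1* at 4 weeks lie at 5.62 and 5.66, *Foxj3* lies near 1 at each time point, and *Foxo4* is the only filled point below 0. The values of *Foxd3* and *Foxq1* depend on the prior count of the fit.

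FOXO proteins are controlled mainly after translation, so the genes of the pathway that acts on them were examined. Of 22 such regulators, all tested, 2 were higher at each time point, where 7.19%, 9.48% and 11.9% of all tested genes were, and 2, 1 and 4 were lower, where 5.13%, 7.93% and 11.0% were, with a median log2 fold change of 0.175, 0.11 and 0.09. *Pik3cb*, a catalytic subunit of PI3K, was higher at Day 7 and 4 weeks, by 1.33 and 1.44 (adjusted p = 0.045 and 0.026). *Stk3*, which encodes the kinase MST2, was higher at Day 3 and Day 7, by 0.93 and 0.62 (adjusted p = 0.0087 and 0.026). *Sgk1*, a kinase that phosphorylates FOXO3, was lower at Day 3 and 4 weeks, by -0.68 and -0.90 (adjusted p = 0.018 and 0.0021). *Akt2*, one of the AKT kinases, was lower at Day 7 and 4 weeks, by -0.79 and -0.81 (adjusted p = 0.014 and 0.0089). Leaving out single libraries changed most of these calls. *Pik3cb* lost its 4-week call without any 1 of the 4 libraries of that time (0.057 to 0.16) and its Day 7 call without any 1 of the 8 Day 7 and 4-week libraries (0.053 to 0.26). *Stk3* lost both calls without either control library of the time (0.059 to 0.12) or *Sox17*-*Erg* replicate 1 (0.094 and 0.19), and at Day 7 without Day 3 *Sox17*-*Erg* replicate 1 (0.0501). *Stk3* also passed at 4 weeks with the replicate block (0.044, and 0.037 within each time point), with DESeq2 (0.049) and without *Sox17*-*Erg* replicate 2 (0.025), but not without *Sox17*-*Erg* replicate 1, where the difference of 0.47 became 0.22 (adjusted p = 0.4). *Sgk1* lost its Day 3 call without either Day 3 control library (0.065 and 0.11) or *Sox17*-*Erg* replicate 1 (0.15) and kept its 4-week call without each library. *Akt2* lost its Day 7 call without control replicate 2 (0.089) or *Sox17*-*Erg* replicate 1 (0.12) and its 4-week call without control replicate 1 (0.069). With the block within each time point *Akt2* and *Pik3cb* were called at Day 3 too (0.047 and 0.0069), and *Pik3cb* also without the filter (0.012), though its Day 3 difference of 0.97 was 0.39 without *Sox17*-*Erg* replicate 1 (adjusted p = 0.67). RNA counts do not show the phosphorylation or location of the proteins.

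Known FOXO target genes went in both directions. Of 21, all tested, 3 were higher at each time point, beside 7.19%, 9.48% and 11.9% of all tested genes, and 3, 4 and 5 were lower, beside 5.13%, 7.93% and 11.0%, with a median log2 fold change of -0.07, -0.10 and -0.10. *Sesn1*, a stress-responsive inhibitor of mTORC1, was lower by -1.29, -1.96 and -1.78 (adjusted p = 0.014, 0.0012 and 0.0011). *Klf15*, a transcription factor, was lower by -1.95, -1.496 and -1.32 (adjusted p = 0.013, 0.02 and 0.024) and *Spry2*, an inhibitor of receptor tyrosine kinase signaling, by -0.75, -1.30 and -1.505 (adjusted p = 0.022, 0.0012 and 0.00033). *Rictor*, a subunit of mTORC2, was higher by 0.55, 0.62 and 0.49 (adjusted p = 0.027, 0.012 and 0.023). The Day 7 and 4-week calls of *Sesn1* and *Spry2* were kept without each library. Their Day 3 calls were lost without either Day 3 control library (0.054 to 0.12), without *Sox17*-*Erg* replicate 1 (0.12 and 0.14) and, for *Spry2*, without *Sox17*-*Erg* replicate 2 (0.081). *Klf15* was not called without control replicate 2 or *Sox17*-*Erg* replicate 1 at Day 3 (0.076 and 0.11) and Day 7 (0.091 and 0.11), nor at 4 weeks without control replicate 1 (0.12) or either *Sox17*-*Erg* library (0.12 and 0.095). *Rictor* was lost without any 1 library of Day 3 (0.051 to 0.23), without control or *Sox17*-*Erg* replicate 1 at Day 7 (0.074 and 0.072), and without either control library (0.056 and 0.12) or *Sox17*-*Erg* replicate 1 (0.305, adjusted p = 0.17) at 4 weeks.

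Of 8 genes reported downstream of FOXC factors in vessels, all tested, 7 were higher at 4 weeks, where 11.9% of all tested genes were. At Day 3 and Day 7 the list had 2 and 3 higher, beside 7.19% and 9.48% of all tested genes, and 1, 0 and 0 were lower at the 3 time points, beside 5.13%, 7.93% and 11.0%, with a median log2 fold change of 0.86, 1.28 and 3.03. *Prox1*, the lymphatic regulator, was higher by 1.94, 2.95 and 4.78 (adjusted p = 0.013, 0.00083 and 5.2e-05). *Hey2*, a Notch effector of arteries, was higher by 2.51, 2.49 and 3.53 (adjusted p = 0.0032, 0.0015 and 0.00014). *Dll4*, an arterial Notch ligand, had 0 counts in both 4-week control libraries and 83.4 and 94.9 CPM with *Sox17*-*Erg*, at least 905-fold higher than a floor of 3 counts per library. Its log2 fold change at Day 3 was 3.26 and was not called (adjusted p = 0.21), and it ranged from 2.38 to 4.87 without 1 library. At Day 3 *Dll4* was called only in alternatives such as no filter (0.0023) and the block within each time point (0.029). Its Day 7 call (6.81, adjusted p = 0.014) was lost without Day 7 control replicate 1 or 2 (0.074 and 0.09) and with Day 7 fitted alone (0.07), and the difference was 4.04 without *Sox17*-*Erg* replicate 1. *Dll4*, higher at Day 7 and 4 weeks in these counts, passed the filter only through *Sox17*-*Erg* libraries. A gene that enters in this way has to differ, so its calls are given as a description. The median of the list at 4 weeks was 3.03 also with *Dll4* at that bound. *Cxcr4*, a chemokine receptor, was higher at 4 weeks by 3.61 (SE 0.87, adjusted p = 0.016), but not without *Sox17*-*Erg* replicate 2 (0.064) or with 4 weeks fitted alone (0.055). The 4-week control libraries of *Cxcr4* held 3 and 27 counts, and its log2 fold change was 2.61 without control replicate 1 and 6.40 without control replicate 2. *Hey2* kept its calls without each library, and *Prox1* lost that of Day 3 without either control library (0.086 and 0.088) or *Sox17*-*Erg* replicate 1 (0.11). Several of these genes also mark arterial or lymphatic endothelium, so their counts cannot be read as a measure of FOXC activity.

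Hedgehog genes, which act upstream of the *Foxf* genes, were mixed, with 3 higher and 4 lower of 12 tested at each time point (14 in the list), beside 7.19%, 9.48% and 11.9% higher and 5.13%, 7.93% and 11.0% lower of all tested genes. Of the membrane proteins that help the ligand bind, 2 were lower, *Gas1* by -1.59, -2.29 and -2.98 (adjusted p = 0.013, 0.0014 and 0.00024) and *Cdon* by -1.09, -1.22 and -1.53 (adjusted p = 0.023, 0.0093 and 0.0023). *Boc*, which has the same role, had log2 fold changes of -0.28, 0.35 and -0.13 and was not called (adjusted p = 0.23, 0.13 and 0.56). *Ptch1*, the receptor and a transcriptional target of the pathway, was higher by 0.69, 1.12 and 1.39 (adjusted p = 0.047, 0.0047 and 0.0011), and *Gli2*, a transcription factor of the pathway, was lower by -1.18, -1.05 and -1.12 (adjusted p = 0.032, 0.033 and 0.02). The 4-week calls of *Gas1*, *Cdon* and *Ptch1* and the Day 7 calls of *Gas1* and *Ptch1* were kept without each library. At Day 3 the calls of *Cdon* and *Gli2* were lost without any 1 of the 4 Day 3 libraries (0.062 to 0.21), and that of *Gas1* without control replicate 1 (0.079) or either *Sox17*-*Erg* library (0.088 and 0.058). *Ptch1* lost its Day 3 call without any 1 of the 8 Day 3 and 4-week libraries (0.065 to 0.26), with DESeq2 size factors (0.052) and with the replicate block (0.0503, and 0.057 within each time point). At Day 7 *Cdon* and *Gli2* were lost without control replicate 2 (0.062, and 0.2 with a difference of -0.69 for *Gli2*) or *Sox17*-*Erg* replicate 1 (0.074 and 0.23), and *Gli2* was lost at 4 weeks without any 1 of the 4 libraries (0.059 to 0.1). The ligand gene *Shh* had 0 counts in all 6 control libraries and reached 1.65 and 1.89 CPM in the Day 7 *Sox17*-*Erg* libraries. Of the 3 Hedgehog genes counted as higher at 4 weeks, *Shh* and *Dhh* passed the filter only through *Sox17*-*Erg* libraries, and *Shh* was also among the 3 at Day 7. The calls of *Shh* and *Dhh* are likewise a description.

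**Figure D5:**
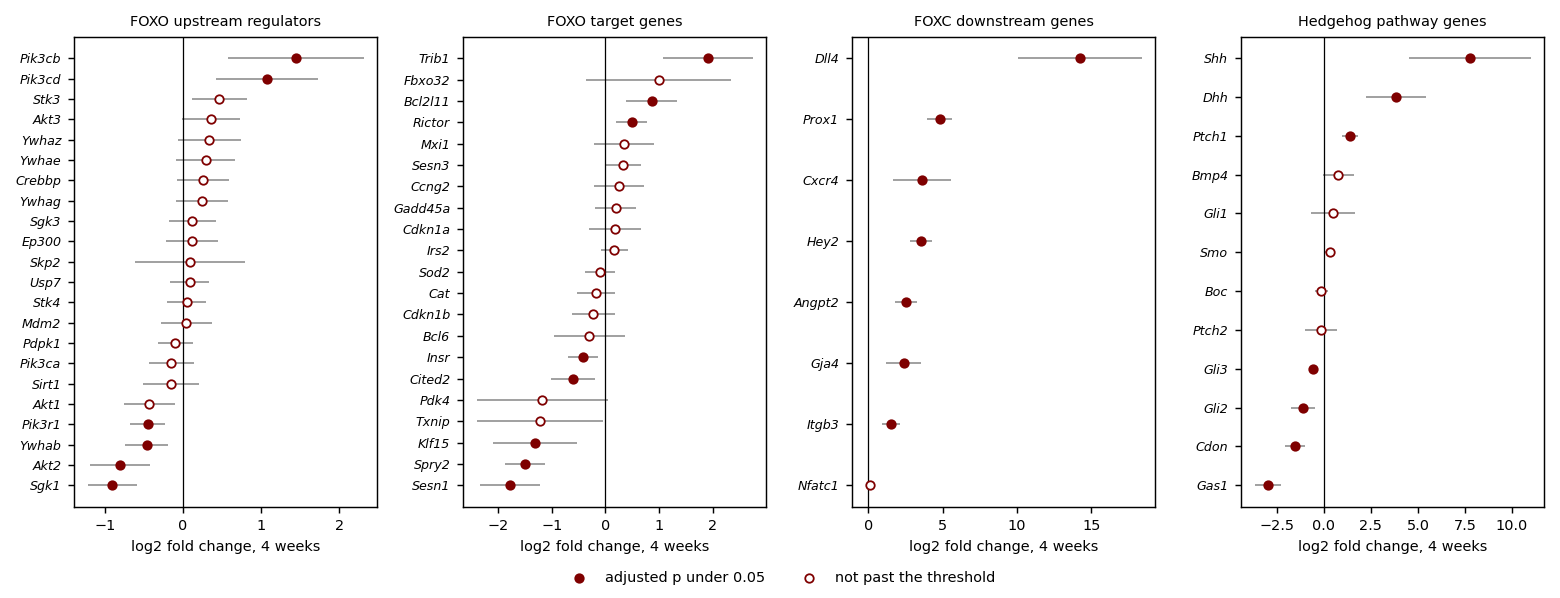
Log2 fold change of *Sox17*-*Erg* over control at 4 weeks (horizontal axes, each with its own range) for the tested genes of 4 lists related to forkhead factors, with lines for the 95% interval and filled points for an adjusted p under 0.05. The FOXO lists hold genes on both sides of 0, 7 of the 8 FOXC genes are filled and above 0, and *Shh* and *Dll4*, with 0 control counts at 4 weeks, have fitted values that depend on the prior count.

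Markers of other cell types moved with the arms. The counts called that follow stand beside 7.19%, 9.48% and 11.9% of all tested genes higher and 5.13%, 7.93% and 11.0% lower at the 3 time points. Summed over 10 endothelial markers, control libraries had 20.95 to 61.4 CPM and *Sox17*-*Erg* libraries 314 to 774 CPM, and 4, 5 and 7 of the 9 tested were higher, led by *Cdh5*, *Emcn*, *Kdr* and *Pecam1*. For 10 fibroblast markers the sums were 16650 to 40260 CPM and 12820 to 42010 CPM, with 0, 1 and 1 higher (*Postn* at the later times) and 1, 3 and 4 lower, *Lum*, *Dcn* and *Tcf21* among them. The fibroblast sums overlapped at Day 3 and Day 7. At 4 weeks they were apart, 16650 to 20230 CPM in control and 12820 to 13440 CPM with *Sox17*-*Erg*. The 12 pericyte and smooth muscle markers, of interest for *Foxs1*, had sums that were apart at each time point. Day 3 sums were 3952 to 4230 CPM in control and 5553 to 5627 CPM with *Sox17*-*Erg*. In the same order they were 1280 to 1918 and 3122 to 5900 CPM at Day 7. At 4 weeks they were 1702 to 3280 and 5547 to 5570 CPM. Of the 12, 3, 7 and 6 were higher (*Mcam*, *Notch3* and *Rgs5* at each time, *Cnn1* at the later ones) and 0, 1 and 3 lower, 1 of which at 4 weeks, *Kcnj8*, passed the filter only through control libraries. Of 8 mitosis genes 0, 0 and 3 were called higher, though all 8 had a positive log2 fold change at each time point (medians 1.35, 0.72 and 2.11). Their sums fell over time in both arms, from 357 and 445 CPM to 39.1 and 43.2 CPM in control and from between 964 and 1166 to between 79.3 and 219 CPM with *Sox17*-*Erg*. Of 8 cardiomyocyte markers 2, 2 and 6 were lower (sums of 646 to 1535 CPM in control and 330 to 688 CPM with *Sox17*-*Erg*), and of 6 epicardial markers 1, 3 and 6 were lower (279 to 1380 CPM and 131 to 319 CPM). Within each time point, the sums of both lists were lower in both *Sox17*-*Erg* libraries than in either control library. Of 7 macrophage markers edgeR called 0 at each time, and 1 had an unadjusted p under 0.05, at Day 7 (47.7 to 1188 CPM and 58.8 to 404 CPM). Their sums were apart only at Day 7, 770 to 1188 CPM in control and 232 to 404 CPM with *Sox17*-*Erg*. At that time 0 of the 7 had a positive log2 fold change. No marker of these lists was at 0 in a whole group, and their part in the forkhead differences was not tested.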

How the data were processed

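The authors isolated RNA with TRIzol, prepared stranded Kapa mRNA libraries, trimmed sequence of high GC content with BBDuk and quantified them with Salmon. The processing notes name mm10 and bcl2fastq 2.20.0, and the Salmon version and annotation are not given in the sources used here. The deposited values are estimated counts per gene, rounded to whole numbers and not scaled for depth, for 35727 Ensembl genes. Gene symbols, positions and overlaps came from GENCODE M21 (GRCm38), which held 35493 of them, and promoter windows from RefSeq.

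With R 4.3.3, edgeR 4.0.16 was run on the counts (TMM, and filterByExpr set to min.count 10 and min.total.count 15), using glmQLFit and glmQLFTest with 1 mean per group over all 12 libraries, 6 residual degrees of freedom and Benjamini-Hochberg adjustment over 15506 genes. Intervals are 95%. RPKM used merged exon length. Library totals of 19011635 to 41240449 counts leave genes with few counts imprecise, and counting intervals cover counting error only. The test was tested on data simulated for Day 7 with known changes. It called 36 of 98 genes with a log2 change of 1 and 75 of 99 with a change of 2. Of its 117 calls, 6 were false. A difference that was not called may therefore still be real. Refits covered the forkhead genes and the genes named from the 4 pathway lists, not the cell type markers.

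The labels do not say whether libraries of a group came from separate isolations, so p-values measure the spread between libraries, which may be technical. Replicate numbers come from the sample titles. Across genes, deviations of same-numbered control and *Sox17*-*Erg* libraries correlated by 0.19, 0.30 and 0.17 at Day 3, Day 7 and 4 weeks. The numbers may therefore pair the libraries, and the main fit, which has no block, does not use this. Values with the block, over all 12 libraries or within each time point, are given where they change a call.

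Alternatives were DESeq2 1.42.0, its size factors, no filter on low counts, each time point fitted alone, the replicate block and leaving out each library. Blocks within time points and with crossed 4-week numbers were added after seeing the data. The forkhead genes and all gene lists (other forkhead genes, FOXO regulators and targets, FOXC downstream, Hedgehog, and markers of endothelial, fibroblast, pericyte and smooth muscle, mitotic, cardiomyocyte, macrophage and epicardial cells) were chosen with earlier results of these data known. Named genes were all members, every other forkhead gene called at any time point, and from each other list up to 4 genes called at the most time points, largest size of change first. *Foxj1*, *Foxl1*, *Foxm1*, *Shh*, *Boc*, *Dhh* and *Kcnj8* are given beyond this rule and were chosen after their values were seen. Promoters of *Foxc2*, *Foxf1*, *Foxp2* and *Foxs1* were not used here, and 1 further FOXO regulator, which is not among the 22 counted, is not reported here.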

Additional observations from a re-analysis of the deposited data

How the results depend on the processing

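Of 313 values of the forkhead genes recomputed with alternatives other than leaving out a library, 286 kept their direction and their side of the threshold, 4 lost a call, 23 gained one and 0 changed direction. Scaling by DESeq2 size factors changed no call of a forkhead gene. For the 16 genes named from the pathway lists, 312 of 336 such values and 492 of 576 values without 1 library kept both, and 0 changed direction. For the forkhead genes, of 576 values without 1 library, 494 kept both, 59 lost a call, 13 gained one and 10 changed direction, all of the last among differences that were not called.

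Those that changed direction without 1 library ranged from -0.12 to 0.063 for *Foxc1* at 4 weeks, from -0.26 to 0.10 and from -0.77 to 0.30 for *Foxf1* at Day 7 and 4 weeks, from -0.45 to 0.28 and from -1.37 to 0.13 for *Foxf2* at Day 7 and 4 weeks, and from -0.155 to 0.034 for *Foxs1* at Day 3. The change within *Sox17*-*Erg* from Day 3 to 4 weeks ranged from -0.037 to 0.17 for *Foxp1* and from -0.041 to 0.397 for *Foxp2*. *Foxd3* at Day 3 ranged from -0.39 to 0.65.

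At Day 3, 1115 genes were higher and 795 lower. The counts were 1712 and 1369 with the replicate block with 4-week numbers crossed, 1973 and 1619 with the replicate block within each time point, and 1250 lower with DESeq2 and 1333 lower without the filter. Without 1 library they ranged from 201 (Day 3 control replicate 2) to 1104 higher and from 66 (Day 3 *Sox17*-*Erg* replicate 1) to 1001 lower. At Day 7, 1470 were higher and 1230 lower, with 609 and 479 when Day 7 was fitted alone, 2065 lower with the block within each time point, and 623 to 1371 higher and 297 to 1292 lower without 1 library, lowest without Day 7 *Sox17*-*Erg* replicate 1. At 4 weeks, 1845 were higher and 1703 lower, with 1049 to 1885 and 648 to 1710 without 1 library, lowest without 4-week *Sox17*-*Erg* replicate 1. A different effect at 4 weeks and Day 3 was called for 498 genes, for 1027 with DESeq2, 1179 without the filter, 748 with the crossed block, 1068 with the block within each time point, and 171 to 481 without 1 library. The causes of these shifts were not tested. With the time point fitted alone, *Foxn2*, *Foxn3*, *Akt2*, *Pik3cb*, *Stk3*, *Klf15*, *Rictor*, *Dll4*, *Cdon*, *Ptch1* and *Gli2* lost their Day 7 calls (adjusted p = 0.06 to 0.13), and *Foxo4* and *Rictor* those of 4 weeks (0.078 and 0.074).

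The replicate block over all 12 libraries changed the call of *Foxp2* at Day 7 and of *Foxo3* in control over time and no other call of the 9 forkhead genes tested. The block within each time point also changed those of *Foxo1* (the difference between 4 weeks and Day 3), *Foxo3* (Day 3 and *Sox17*-*Erg* over time), *Foxc2* (*Sox17*-*Erg* over time) and *Foxs1* (Day 7), each to a call. The crossed numbers were tried because deviations of same-numbered control libraries at 4 weeks correlated by -0.10 with Day 3 and -0.11 with Day 7. With 2 libraries per group, an arm that lost 1 was assumed to vary like the other groups, and counts as low as those of *Foxf1*, *Foxf2* and *Foxd1* limit what could be called.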
